A study of Homo sapiens with 12 samples.

Results

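The genes of glucose breakdown and of the response to low oxygen were followed in H69 cells, a line of human cholangiocytes, the epithelial cells of the bile ducts, that was immortalised with a viral large T antigen. The set holds 38 genes out of 62703 in the count table, chosen by name for their function: glucose and lactate transporters, the enzymes from hexokinase to lactate dehydrogenase, the kinases that control phosphofructokinase and pyruvate dehydrogenase, and factors, sensors and targets of the hypoxia-inducible factors (HIF). The choice was made with earlier results of these data known, so counts over the set are not an independent check. All 38 had a row in the table, and all 38 passed the filter on low counts. After 6 h without serum, the cells received an overnight treatment, in medium without serum, with TGFβ at 10 ng/mL plus Aramchol at 30 µM, with TGFβ alone, with Aramchol alone or with vehicle. TGFβ is a growth factor that promotes matrix deposition and loss of epithelial traits, and Aramchol, a bile acid coupled to a saturated fatty acid, lowers stearoyl-CoA desaturase activity. The labels state 1 concentration of Aramchol for the series, read here as that of both groups that received it. There were 3 RNA sequencing libraries in each of the 4 groups, with 52279922 to 70339925 counts per library. Whether the 3 come from separate cultures is not in the labels, and p-values therefore rest on the spread of these libraries, which may be technical variation. The sources used here do not give the oxygen level of the cultures.

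Glycolysis splits glucose into pyruvate, and lactate dehydrogenase turns pyruvate into lactate when it is not burnt in mitochondria. Cells in low oxygen raise this route through HIF, a pair of an oxygen-sensitive alpha subunit (HIF1A or EPAS1) and a stable partner: hydroxylases of the EGLN family mark the alpha subunit for destruction when oxygen is present, so that HIF is controlled mainly at the protein level. HIF binds a short DNA motif at genes for glucose transporters, glycolytic enzymes, pyruvate dehydrogenase kinases and secreted factors such as VEGFA. In fibrotic tissue, TGFβ is known to raise glucose use in several cell types.

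TGFβ against vehicle showed what the cytokine alone did to these genes, and most of them were higher with TGFβ. Of the 38 members, 22 rose and 3 fell at an adjusted p under 0.05 (edgeR's quasi-likelihood test, Benjamini-Hochberg over all 21567 genes tested), and 13 were not called. Among all genes tested in this comparison, 18.9% were called higher and 18.1% lower. The median log2 fold change was 0.37 over the members and -0.029 over all genes tested. The libraries of the 2 groups did not overlap for 27 members that were higher with TGFβ (23% of all genes) and for 3 that were lower (23.7% of all genes). The 5 members that rose at least 2-fold were VEGFA, PFKFB4, PFKFB3, ADM and EGLN3. They are the 2 secreted factors of the set, a HIF hydroxylase, and the 2 PFKFB genes of the set, whose enzymes set phosphofructokinase activity. LDHA and SLC2A1, the lactate dehydrogenase and glucose transporter genes best known as HIF targets, came next. In bulk RNA a change in the share of cells that express a gene cannot be told apart from a change in RNA per cell.

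**Figure D1:**
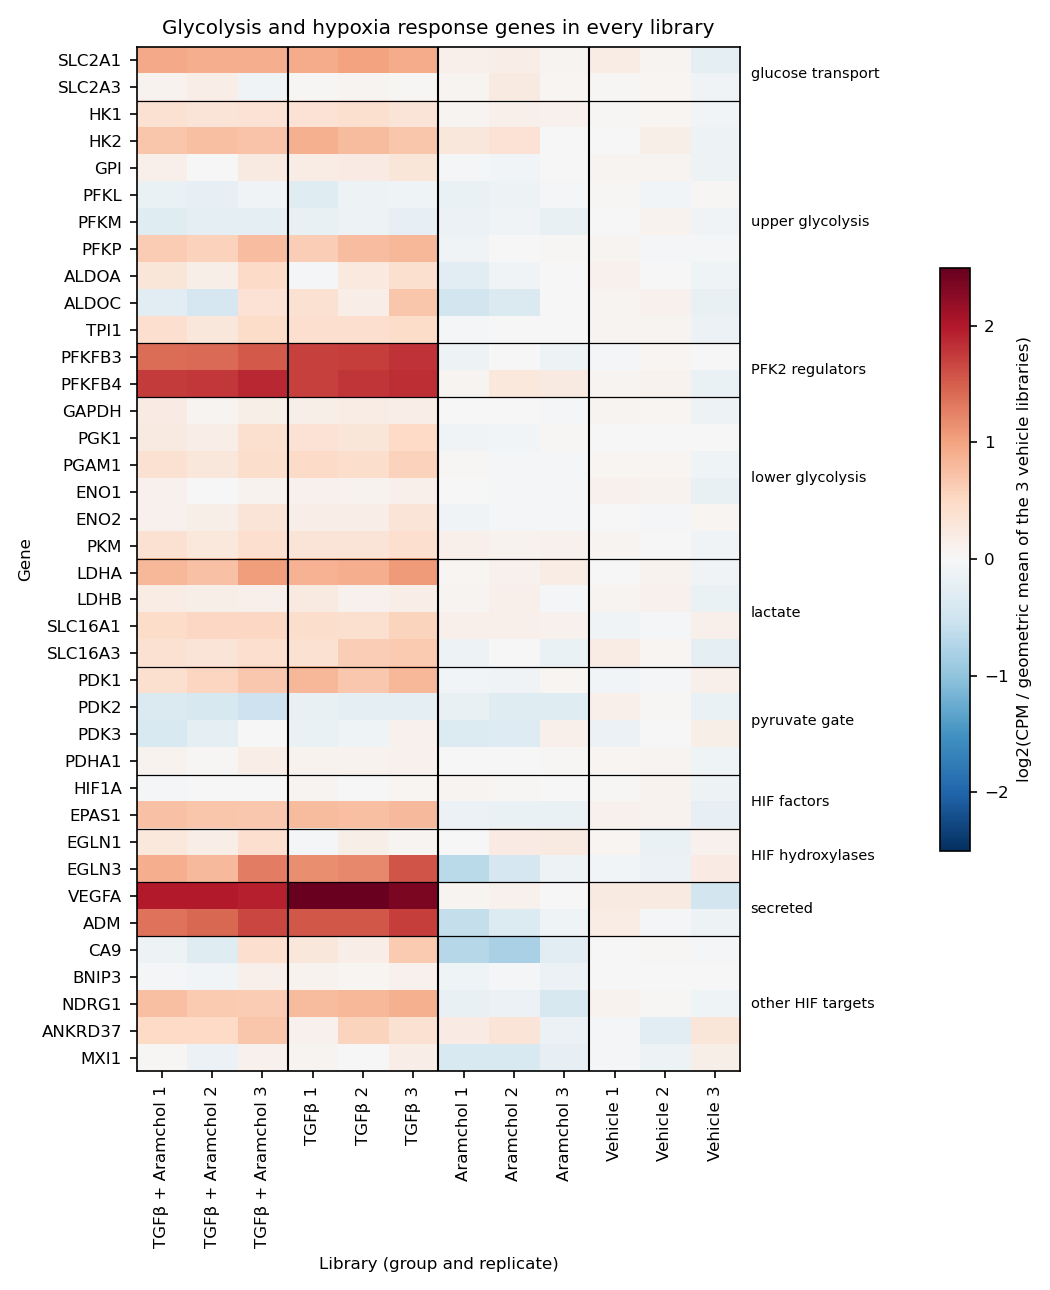
Level of each of the 38 genes (rows, grouped by role) in each of the 12 libraries (columns), as log2 of CPM over the geometric mean of the 3 vehicle libraries. Red is higher and blue lower than vehicle. The 6 libraries with TGFβ were red for VEGFA, PFKFB3, PFKFB4, ADM and EGLN3, and close to vehicle for HIF1A and BNIP3.

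Some libraries and marker genes moved with these results. Vehicle replicate 3 was the lowest library of its group for 27 of the 38 members (43.1% of all genes), and TGFβ replicate 3 the highest of its group for 25 (36.6% of all genes). Without the 4 libraries numbered 3, 21 members rose and 3 fell with TGFβ, and all of these were among the 22 and 3 called with all libraries. KRT7 and KRT19, keratins of bile duct epithelium, were detected in every library (KRT7 at 275 to 999.9 CPM and KRT19 at 14.8 to 33.4 CPM), while the cholangiocyte markers SPP1 and CFTR reached at most 0.182 and 0.0494 CPM. Of 6 cholangiocyte markers tested, 2 rose and 3 fell with TGFβ (median log2 fold change -0.71, range -1.20 to 4.39). The 9 listed summed to 736 to 908 CPM with TGFβ + Aramchol and 888 to 1036 CPM with TGFβ, against 433 to 616 CPM with Aramchol and 311 to 758 CPM with vehicle. The summed level of 7 fibroblast markers was 3290 to 4602 CPM with TGFβ + Aramchol and 4535 to 6026 CPM with TGFβ, against 1152 to 1378 CPM with Aramchol and 1091 to 1307 CPM with vehicle. COL1A1 made up most of that sum, COL3A1 reached at most 0.115 CPM, and 4 of the 6 fibroblast markers tested rose with TGFβ and 1 fell. The part of the cholangiocyte and fibroblast markers in the result was not tested. Leukocyte markers summed to at most 0.895 CPM in any library.

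Many HIF targets carry the HIF motif near their start, and the stretch before the start of each member was searched for it. RefSeq promoter sequences (GRCh38.p14, 250 bases before the start) were matched for 34 of the 38 members, all but NDRG1, SLC16A1, SLC2A3 and VEGFA. Where a gene had several starts, only the outermost on its strand was read, which need not be the start used in these cells. The HIF core, ACGTG or GCGTG on either strand, was present in 21 of the 34 (61.8%) and in 43.1% of 27305 promoters of the same length. The member promoters also had more G and C, a median of 70.4% against 57.6% of bases. Among members that rose with TGFβ, 10 of 19 held the core, and among the other 15 members 11 did. CACGTG, which contains ACGTG on both strands, was found in 5 of 34 members and 6.46% of all promoters. The SMAD element CAGAC was found in 10 of 34 members (29.4%) and 37.9% of all promoters, and the SMAD palindrome GTCTAGAC in 0 of 34 and 0.183%. A match is a run of letters and does not show binding.

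Promoters of 4 members that rose are shown because they differ in the core while their RNA moved the same way, and that of BNIP3 because it held 6 matches and was not called. Each runs 5′ to 3′ on the strand of its gene, with the core on either strand in capitals: PFKFB3 (chr10:6144671-6144920, plus strand), PFKFB4 (chr3:48556804-48557053, minus strand), LDHA (chr11:18394313-18394562, plus strand), SLC2A1 (chr1:42958869-42959118, minus strand) and BNIP3 (chr10:131981924-131982173, minus strand).
PFKFB3: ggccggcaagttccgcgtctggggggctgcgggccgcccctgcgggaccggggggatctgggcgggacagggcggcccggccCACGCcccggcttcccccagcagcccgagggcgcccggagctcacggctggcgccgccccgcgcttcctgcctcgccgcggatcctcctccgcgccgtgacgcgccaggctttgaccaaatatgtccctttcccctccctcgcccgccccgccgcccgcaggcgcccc
PFKFB4: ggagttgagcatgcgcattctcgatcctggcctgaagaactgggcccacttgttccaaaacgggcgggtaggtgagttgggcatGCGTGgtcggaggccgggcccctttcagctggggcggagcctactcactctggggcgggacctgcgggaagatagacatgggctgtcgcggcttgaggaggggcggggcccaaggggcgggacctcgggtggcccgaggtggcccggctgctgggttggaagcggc
LDHA: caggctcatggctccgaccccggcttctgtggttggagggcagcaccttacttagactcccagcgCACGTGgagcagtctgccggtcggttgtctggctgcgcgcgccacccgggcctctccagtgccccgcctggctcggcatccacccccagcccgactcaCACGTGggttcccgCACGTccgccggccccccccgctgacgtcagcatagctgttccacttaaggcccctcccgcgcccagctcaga
SLC2A1: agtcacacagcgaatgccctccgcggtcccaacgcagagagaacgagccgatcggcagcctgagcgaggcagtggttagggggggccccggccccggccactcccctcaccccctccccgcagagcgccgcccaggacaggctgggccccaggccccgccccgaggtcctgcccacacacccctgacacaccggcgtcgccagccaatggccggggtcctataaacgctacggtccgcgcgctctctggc
BNIP3: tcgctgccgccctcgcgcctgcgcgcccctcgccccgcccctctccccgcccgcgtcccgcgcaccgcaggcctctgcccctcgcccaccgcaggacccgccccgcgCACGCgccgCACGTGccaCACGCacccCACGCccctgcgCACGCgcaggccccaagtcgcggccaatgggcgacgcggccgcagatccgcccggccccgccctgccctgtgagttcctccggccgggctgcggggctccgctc
PFKFB3 and PFKFB4 each held 1 core, LDHA held 5 matches (each CACGTG counts on both strands), and SLC2A1 held 0. Sites outside these windows were not searched. In the annotation of the count table PFKFB4 extends to 48562015, beyond the window shown.

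Glucose enters the cell through transporters and is trapped by hexokinase. SLC2A1 (ENSG00000117394, chromosome 1, 42925353 to 42958893, minus strand, GRCh38), the basal glucose transporter GLUT1, had 141, 138 and 138 CPM with TGFβ + Aramchol and 139.8, 148 and 139 CPM with TGFβ, against 80.5, 83.2 and 76.8 CPM with Aramchol and 83.6, 77.1 and 62.1 CPM with vehicle. No TGFβ library came near a vehicle library, and the gene rose 1.92-fold (log2 fold change 0.94 ± 0.081 SE, edgeR's quasi-likelihood test, adjusted p = 1.61e-07). The 250 bases read before its start held no HIF core, and more distant sites were not searched. SLC2A3, the high-affinity transporter GLUT3, had 41.7, 44.4 and 37.3 CPM with TGFβ + Aramchol and 40.3, 41.4 and 40.4 CPM with TGFβ, against 41.4, 46.1 and 40.8 CPM with Aramchol and 40.1, 41.1 and 37.2 CPM with vehicle. The groups overlapped for SLC2A3, with a log2 fold change of 0.045 and a 95% interval of -0.10 to 0.19. HK2, the inducible hexokinase, had 38.2, 39.5 and 38.4 CPM with TGFβ + Aramchol and 43.6, 40.9 and 38.1 CPM with TGFβ, against 28.5, 30.2 and 23.8 CPM with Aramchol and 23.4, 25.9 and 21.5 CPM with vehicle. It rose by 0.79 ± 0.088 on the log2 scale (adjusted p = 2.86e-06), with no overlap between TGFβ and vehicle. HK1, the constitutive hexokinase, had 269, 259.8 and 266 CPM with TGFβ + Aramchol and 267, 272 and 259.6 CPM with TGFβ, against 218, 226 and 223 CPM with Aramchol and 212, 213 and 196 CPM with vehicle. Its rise was smaller, 0.36 ± 0.048 (log2), and also without overlap (adjusted p = 1.81e-05).

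Phosphofructokinase commits the sugar to glycolysis, and its 3 genes did not move together. PFKP (ENSG00000067057, chromosome 10, 3066333 to 3137718, plus strand), the platelet-type subunit, had 424, 408 and 466 CPM with TGFβ + Aramchol and 416, 466 and 482 CPM with TGFβ, against 257, 276 and 278 CPM with Aramchol and 284, 268 and 267 CPM with vehicle. It rose 1.67-fold with TGFβ (adjusted p = 2.22e-07). PFKL, the liver-type subunit, had 223, 219 and 236 CPM with TGFβ + Aramchol and 205, 230.0 and 234 CPM with TGFβ, against 224, 229.9 and 247 CPM with Aramchol and 258, 240.3 and 257 CPM with vehicle. It fell by 0.17 on the log2 scale (adjusted p = 0.0323). PFKM, the muscle-type subunit, had 65.4, 68.3 and 68.1 CPM with TGFβ + Aramchol and 71.2, 74.4 and 70.1 CPM with TGFβ, against 73.1, 76.1 and 70.9 CPM with Aramchol and 81.1, 85.9 and 76.4 CPM with vehicle. It fell by 0.17 (adjusted p = 0.0179), and for both genes each TGFβ library was below each vehicle library. The call of PFKL was lost without TGFβ replicate 1 (adjusted p = 0.171), vehicle replicate 1 (0.0898) or vehicle replicate 3 (0.0668), and that of PFKM without TGFβ replicate 1 (0.0599), TGFβ replicate 3 (0.0743) or vehicle replicate 2 (0.104). Per kb of exon, PFKP was 62.6 ± 0.685% of the 3 phosphofructokinase genes with TGFβ and 47.1 ± 0.591% with vehicle (SD, n = 3). PFKM shares 5.51% of its exonic bases with SENP1 on the other strand, and the sources used here do not say whether counting used strand.

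The 2 PFKFB genes of the set encode enzymes that make and remove the sugar bisphosphate that switches phosphofructokinase on. These 2 rose more than any of the 17 enzyme genes among the 38 members. PFKFB3 (ENSG00000170525, chromosome 10, 6144934 to 6254644, plus strand), whose product mainly makes this activator, had 100.1, 101 and 109 CPM with TGFβ + Aramchol and 124, 126 and 133 CPM with TGFβ, against 34.5, 38 and 34.5 CPM with Aramchol and 36.5, 39.2 and 37.9 CPM with vehicle. The 3 TGFβ libraries lay far above the 3 vehicle libraries, 3.37-fold on average (1.75 ± 0.058 on the log2 scale, adjusted p = 3.56e-12). PFKFB4 (ENSG00000114268, chromosome 3, 48517684 to 48562015, minus strand), its paralog, had 94.5, 94.9 and 103 CPM with TGFβ + Aramchol and 91.2, 96.8 and 101 CPM with TGFβ, against 29.5, 33.6 and 32.9 CPM with Aramchol and 29.4, 29.7 and 25.1 CPM with vehicle. It rose 3.43-fold (adjusted p = 4.59e-11) with as wide a gap between the groups. PFKFB4 shares 4.88% of its exonic bases with UCN2 on the same strand, which had 32.5% of its counts. The share of PFKFB3 in the sum of both, per kb, was 57 ± 0.634% with TGFβ and 57.4 ± 2.49% with vehicle.

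The other members of the upper pathway changed less. TPI1, which interconverts the triose phosphates, had 802, 726 and 830.3 CPM with TGFβ + Aramchol and 808, 800.2 and 827 CPM with TGFβ, against 586, 593 and 595 CPM with Aramchol and 631, 629 and 545 CPM with vehicle. It rose by 0.43 ± 0.063 on the log2 scale (adjusted p = 5.02e-05) without overlap. GPI, the isomerase after hexokinase, had 429, 432 and 464 CPM with TGFβ, against 391, 393 and 344 CPM with vehicle. It rose by 0.23 ± 0.064 (log2, adjusted p = 0.00924), and its lowest TGFβ library was above its highest vehicle library. The aldolases, which cut the sugar bisphosphate into triose phosphates, were not called in the fit reported. Of 21 alternatives, 6 called ALDOC higher and 2 called ALDOA higher. ALDOA had 45.3, 40.6 and 51.1 CPM with TGFβ + Aramchol and 36.2, 43.8 and 48.9 CPM with TGFβ, against 30.9, 34.7 and 36.4 CPM with Aramchol and 39.6, 36.9 and 34.2 CPM with vehicle. Its TGFβ and vehicle libraries overlapped (0.22, 95% interval -0.0025 to 0.44), and 42.8% of its exonic bases are shared with another gene on the same strand, which leaves its count uncertain. ALDOC had 16.3, 14.7 and 25.2 CPM with TGFβ + Aramchol and 25.4, 21.8 and 31.7 CPM with TGFβ, against 14.2, 15.2 and 19.8 CPM with Aramchol and 20.5, 21.2 and 17.3 CPM with vehicle. Its TGFβ libraries were all above those of vehicle, but the spread was wide (0.42, 95% interval 0.036 to 0.81, adjusted p = 0.0823).

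In the lower part of the pathway, which yields ATP, 5 of 6 members rose, none by more than 1.41-fold. PGAM1, the phosphoglycerate mutase, had 209, 195 and 217 CPM with TGFβ + Aramchol and 224, 217 and 239.7 CPM with TGFβ, against 165, 156 and 155 CPM with Aramchol and 167, 167 and 149 CPM with vehicle. It changed most of the 6, by 0.49 ± 0.061 on the log2 scale (adjusted p = 8.87e-06). PGK1, the first ATP-forming enzyme, had 767, 733 and 866 CPM with TGFβ + Aramchol and 845, 809 and 930.4 CPM with TGFβ, against 615, 624 and 669 CPM with Aramchol and 656, 659.6 and 649 CPM with vehicle. PKM, pyruvate kinase of non-liver tissues, had 2734, 2523 and 2819 CPM with TGFβ + Aramchol and 2619, 2627 and 2826 CPM with TGFβ, against 2281, 2229.6 and 2272 CPM with Aramchol and 2211, 2123 and 1978 CPM with vehicle. PGK1 rose by 0.40 and PKM by 0.35 on the log2 scale, both without overlap between TGFβ and vehicle (adjusted p = 0.000207 and 0.00016). ENO2, the neuronal enolase, had 92, 94.7 and 107 CPM with TGFβ + Aramchol and 97, 96.9 and 108 CPM with TGFβ, against 80.9, 82.9 and 83.3 CPM with Aramchol and 85.8, 83.5 and 88.5 CPM with vehicle, a rise of 0.23 (adjusted p = 0.00925, and 0.0578 without TGFβ replicate 3). ENO1, the main enolase, had 1767, 1627 and 1743 CPM with TGFβ + Aramchol and 1774, 1743 and 1787 CPM with TGFβ, against 1659, 1619 and 1580.4 CPM with Aramchol and 1770.1, 1743 and 1440.5 CPM with vehicle. Its groups overlapped, with vehicle replicates 1 and 2 as high as the TGFβ libraries (0.10, 95% interval -0.047 to 0.24). GAPDH, a gene often taken as a constant control, had 1905, 1968 and 1936 CPM with TGFβ, against 1823, 1794 and 1579.6 CPM with vehicle. Its difference of 0.16 (log2) was just called (adjusted p = 0.0434), and the call was lost in 11 of 21 alternatives, among them upper quartile scaling (adjusted p = 0.107). It was lost without vehicle replicate 3 (log2 fold change 0.099, adjusted p = 0.142), without any 1 of the TGFβ libraries (0.0679 to 0.119), and without TGFβ + Aramchol replicate 3 or Aramchol replicate 1 or 2 (0.0502 to 0.0607).

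Pyruvate is then made into lactate and exported. LDHA (ENSG00000134333, chromosome 11, 18394560 to 18408425, plus strand), the lactate dehydrogenase subunit that favours lactate, had 1463, 1378 and 1709.5 CPM with TGFβ + Aramchol and 1498, 1547 and 1727 CPM with TGFβ, against 854, 885 and 933 CPM with Aramchol and 823, 874 and 779.6 CPM with vehicle. Every TGFβ library was at least 1498 CPM and every vehicle library at most 874 CPM, a 1.93-fold rise (adjusted p = 1.1e-07). LDHB, the subunit that favours pyruvate, had 27.9, 27 and 26.7 CPM with TGFβ + Aramchol and 28.6, 26.4 and 27.5 CPM with TGFβ, against 25.9, 26.7 and 23.9 CPM with Aramchol and 25.7, 26.4 and 21.8 CPM with vehicle. The TGFβ libraries of LDHB lay only just above those of vehicle, and it was not called (0.16, 95% interval 0.0015 to 0.32). In 1 of 21 alternatives LDHB was called higher. A gene on the same strand shares 33.4% of its exonic bases. SLC16A3, the lactate exporter MCT4, had 651, 624 and 667 CPM with TGFβ + Aramchol and 645, 766 and 782 CPM with TGFβ, against 456, 491 and 443 CPM with Aramchol and 566, 514 and 423 CPM with vehicle. SLC16A1, the lactate and pyruvate transporter MCT1, had 121, 127 and 127 CPM with TGFβ + Aramchol and 120.4, 117 and 129.7 CPM with TGFβ, against 96.6, 97 and 95 CPM with Aramchol and 83, 86.2 and 97.1 CPM with vehicle. SLC16A3 rose by 0.54 ± 0.092 and SLC16A1 by 0.46 ± 0.06 on the log2 scale (adjusted p = 0.000206 and 1.48e-05), and neither overlapped with vehicle. SLC16A3 shares 5.22% of its exonic bases with CSNK1D on the other strand, which had 38.9% of its counts. The share of SLC16A3 in the sum of both, per kb, was 80.3 ± 1.58% with TGFβ and 79.3 ± 3.85% with vehicle (exact permutation test, two-sided p = 0.8), a difference within the spread of the libraries.

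Entry of pyruvate into mitochondrial oxidation is held back by the PDK kinases, which inactivate pyruvate dehydrogenase. PDK1, the isoform known as a HIF target, had 24.3, 26.6 and 29.3 CPM with TGFβ + Aramchol and 32.8, 29.1 and 32.7 CPM with TGFβ, against 17.5, 17.2 and 19.1 CPM with Aramchol and 17.4, 17.6 and 20.1 CPM with vehicle. It rose 1.72-fold with TGFβ (adjusted p = 2.25e-06) without overlap. PDK2 had 29.3, 28.5 and 26.4 CPM with TGFβ + Aramchol and 33.4, 31.8 and 32.2 CPM with TGFβ, against 33.2, 30.7 and 30.6 CPM with Aramchol and 41.3, 38.7 and 33.8 CPM with vehicle. It fell by 0.22 on the log2 scale (adjusted p = 0.0234), and 38.6% of its exonic bases are shared with SAMD14 on the other strand. The PDK2 call was lost without TGFβ replicate 2 (adjusted p = 0.0809), TGFβ replicate 3 (0.0679), vehicle replicate 1 (0.116) or vehicle replicate 2 (0.073). PDK3 had 29.9, 32.8 and 38.6 CPM with TGFβ + Aramchol and 34.7, 35.8 and 41.6 CPM with TGFβ, against 30.5, 30.9 and 42.5 CPM with Aramchol and 35, 38.9 and 42.9 CPM with vehicle. The PDK3 groups overlapped (-0.059, 95% interval -0.33 to 0.21). PDHA1, the catalytic subunit that the kinases act on, ran from 155 to 157 CPM with TGFβ and from 135 to 152 CPM with vehicle and was not called (0.095, 95% interval -0.02 to 0.21).

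The alpha subunits of HIF differed from each other. HIF1A (ENSG00000100644, chromosome 14, 61695513 to 61748259, plus strand) had 648, 667 and 672 CPM with TGFβ + Aramchol and 706, 669.6 and 700.2 CPM with TGFβ, against 703, 690.2 and 668 CPM with Aramchol and 691, 719.8 and 617 CPM with vehicle. The groups overlapped and the difference was small, 0.033 on the log2 scale with a 95% interval of -0.088 to 0.15, and -0.028 without vehicle replicate 3. EPAS1 (ENSG00000116016, chromosome 2, 46293667 to 46386697, plus strand), which encodes HIF2α, had 507, 496 and 485 CPM with TGFβ + Aramchol and 530.1, 512 and 533 CPM with TGFβ, against 276, 273 and 271 CPM with Aramchol and 329, 324 and 266 CPM with vehicle. It rose 1.71-fold with TGFβ (adjusted p = 1.59e-07), and its lowest TGFβ library was far above its highest vehicle library. Per kb, EPAS1 was 34.9 ± 0.208% of the sum of both alpha subunits with TGFβ and 24.2 ± 0.922% with vehicle. These are RNA levels, and the amount of HIF protein was not measured. EGLN3 (ENSG00000129521, chromosome 14, 33924227 to 34462774, minus strand), a HIF hydroxylase that is itself a HIF target, had 14.7, 13.7 and 19.1 CPM with TGFβ + Aramchol and 17.5, 18 and 23.2 CPM with TGFβ, against 4.88, 5.87 and 7.14 CPM with Aramchol and 7.48, 7.10 and 9.05 CPM with vehicle. It rose 2.48-fold (adjusted p = 5.93e-06). EGLN1, the main oxygen sensor, had 20.9, 19.7 and 23.4 CPM with TGFβ + Aramchol and 17.2, 19.4 and 18.5 CPM with TGFβ, against 17.7, 20.2 and 20.5 CPM with Aramchol and 18.1, 15.6 and 19 CPM with vehicle. The EGLN1 groups overlapped (0.062, 95% interval -0.13 to 0.26), and 55.8% of its exonic bases are shared with another gene on the same strand.

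Of the HIF targets outside metabolism, both secreted factors rose. VEGFA (ENSG00000112715, chromosome 6, 43770184 to 43786487, plus strand), the angiogenic growth factor, had 417, 416 and 407 CPM with TGFβ + Aramchol and 587, 584 and 541 CPM with TGFβ, against 109.9, 113 and 105 CPM with Aramchol and 124, 124 and 76.5 CPM with vehicle. With a 5.29-fold rise it changed more than any other member (log2 fold change 2.40 ± 0.13, adjusted p = 8.43e-10), and vehicle replicate 3 was well below the other two. ADM (ENSG00000148926, chromosome 11, 10305073 to 10307397, plus strand), which encodes the vasodilator peptide adrenomedullin, had 13.7, 14.3 and 16.8 CPM with TGFβ + Aramchol and 15.6, 15.5 and 17.5 CPM with TGFβ, against 3.52, 4.18 and 4.95 CPM with Aramchol and 6.03, 5.12 and 4.85 CPM with vehicle. It rose 3.04-fold (adjusted p = 5.05e-08) without overlap. NDRG1, a stress-induced gene, had 116, 108 and 106 CPM with TGFβ + Aramchol and 119, 123 and 127 CPM with TGFβ, against 60.4, 61.7 and 52 CPM with Aramchol and 72.4, 69.5 and 63.9 CPM with vehicle, and it rose 1.79-fold (adjusted p = 8.21e-08) with a clear gap between the groups. The other 4 HIF targets were not called in the fit reported, while 5 of 21 alternatives called CA9 higher. CA9, a membrane carbonic anhydrase and classic marker of hypoxia, had 10.6, 9.38 and 15.6 CPM with TGFβ + Aramchol and 14.1, 13 and 18.3 CPM with TGFβ, against 7.10, 6.63 and 9.59 CPM with Aramchol and 11.5, 11.9 and 11.4 CPM with vehicle (0.38, 95% interval 0.012 to 0.75, adjusted p = 0.1). BNIP3, a mitophagy receptor, had 89.9, 87.3 and 91 CPM with TGFβ, against 84.5, 84.1 and 84.4 CPM with vehicle, and its difference of 0.083 (log2) had an interval of -0.033 to 0.20. MXI1, which opposes MYC, had 33.7, 30.0 and 35.6 CPM with TGFβ + Aramchol and 34.8, 33 and 37.1 CPM with TGFβ, against 25.6, 25.4 and 28.8 CPM with Aramchol and 32.6, 30.4 and 36.6 CPM with vehicle, with overlap and an interval of -0.10 to 0.25. ANKRD37 stayed between 0.939 and 1.82 CPM in all libraries (0.34, 95% interval -0.075 to 0.76). For CA9 and ANKRD37, 35.7% and 40.3% of exonic bases are shared with a gene on the other strand that had 135% and 1630% of their counts, so their values are uncertain.

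**Figure D2:**
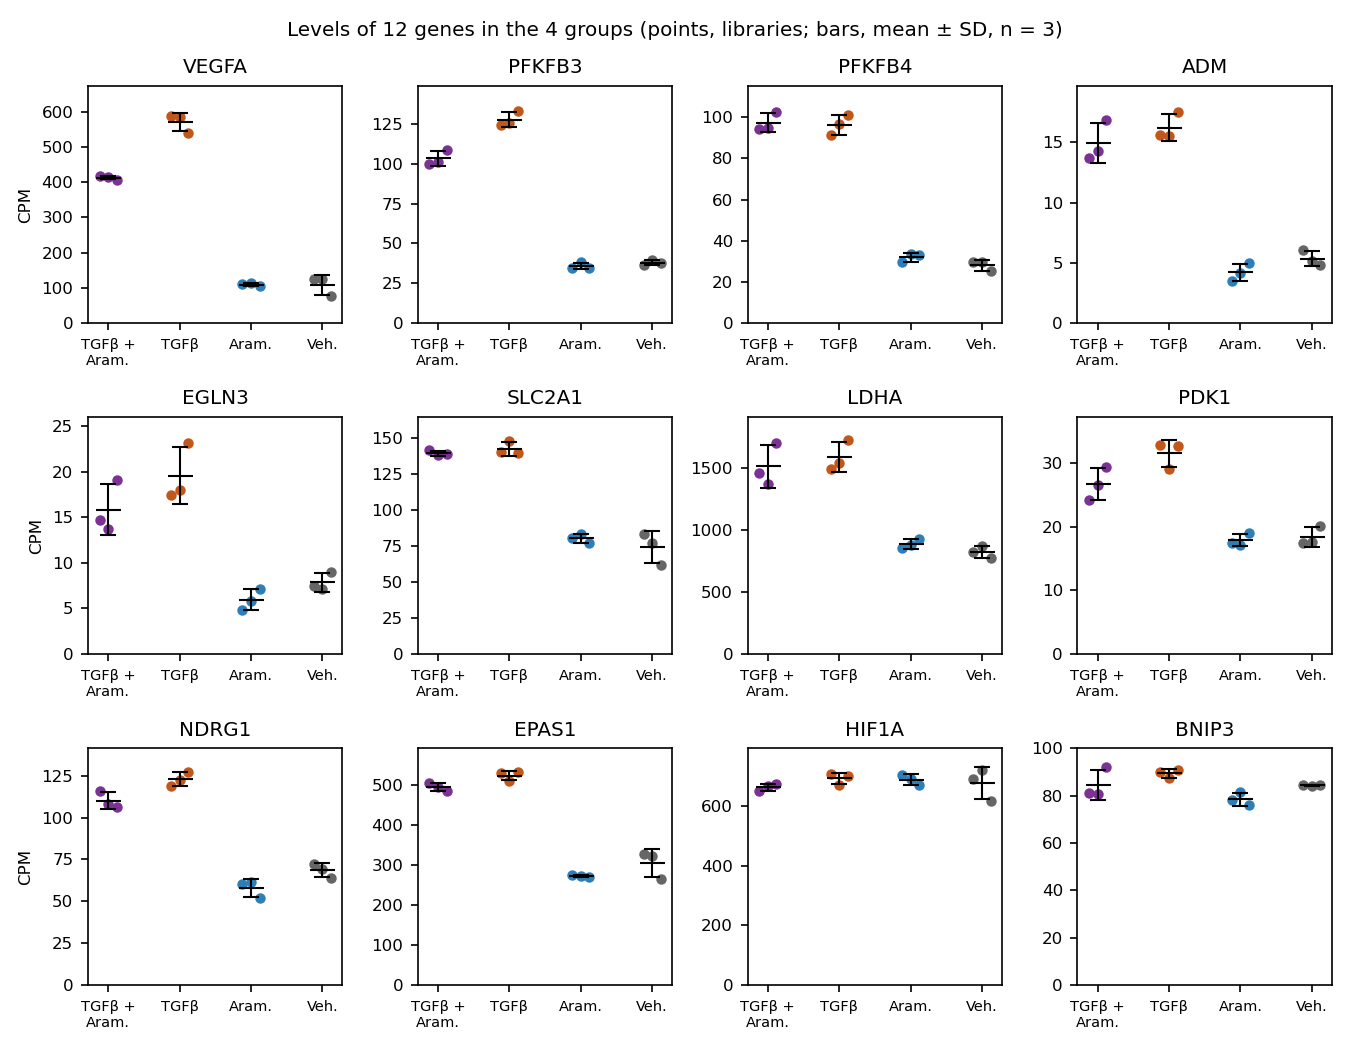
CPM of 12 genes in the 4 groups (Aram., Aramchol; Veh., vehicle). Points are libraries, long bars the mean and short bars the SD (n = 3), and each axis starts at 0. In the first 10 panels every library with TGFβ lies above every library without it, while HIF1A and BNIP3 lie at similar levels in all groups.

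Seen by level, the set spanned more than 3 orders of magnitude. In vehicle cells GAPDH stood at 723 RPKM (CPM per kb of exon), ahead of ENO1 at 317, PKM at 245, TPI1 at 223, LDHA at 137 and HIF1A at 131 RPKM. EGLN3 (1.07) and ANKRD37 (0.508 RPKM) were lowest. VEGFA stood at 39.5 ± 1.82 RPKM with TGFβ and 7.48 ± 1.89 RPKM with vehicle (SD, n = 3), and LDHA at 263 ± 19.9 and 137 ± 7.79 RPKM. Summed over the 17 enzyme genes from hexokinase to lactate dehydrogenase, the level was 11232 ± 639 CPM with TGFβ + Aramchol and 11581 ± 398 CPM with TGFβ, against 9216 ± 25.4 CPM with Aramchol and 9110 ± 580 CPM with vehicle (SD, n = 3). TGFβ over vehicle was a ratio of 1.27, and the lowest TGFβ library (11291 CPM) was above the highest vehicle library (9502 CPM).

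The make-up of several families differed with TGFβ. SLC2A1 made up 76.2 ± 0.346% of SLC2A1 plus SLC2A3 per kb with TGFβ and 63.1 ± 2.58% with vehicle. HK2 made up 15.1 ± 0.736% of both hexokinases with TGFβ and 11.7 ± 0.582% with vehicle. PDK1 made up 20.8 ± 0.776% of the 3 kinases with TGFβ and 11.9 ± 1.42% with vehicle, and EGLN3 43.6 ± 3.78% of EGLN3 plus EGLN1 with TGFβ and 24.6 ± 1.33% with vehicle. For these, for PFKP and for EPAS1 the libraries did not overlap, and the exact permutation test (two-sided) gave p = 0.1, the smallest that 3 against 3 allows, and 0.16 after Benjamini-Hochberg adjustment over 24 shares in 11 families. EGLN1 shares 55.8% of its exonic bases with a gene on the same strand, and PDK2 38.6% with SAMD14 on the other strand. The size of the EGLN3 and PDK1 shares is therefore uncertain. A rise did not always come with a larger share. HK1 rose but was 84.9 ± 0.736% of both hexokinases with TGFβ and 88.3 ± 0.582% with vehicle, and ENO2, at 6.47 ± 0.313% of both enolases with TGFβ and 6.02 ± 0.821% with vehicle, overlapped (exact permutation test, two-sided p = 0.4). TGFβ + Aramchol against Aramchol gave the same p = 0.1 for the shares of SLC2A1, HK2, PDK1, EGLN3, PFKP and EPAS1 (0.171 adjusted, exact permutation test).

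**Figure D3:**
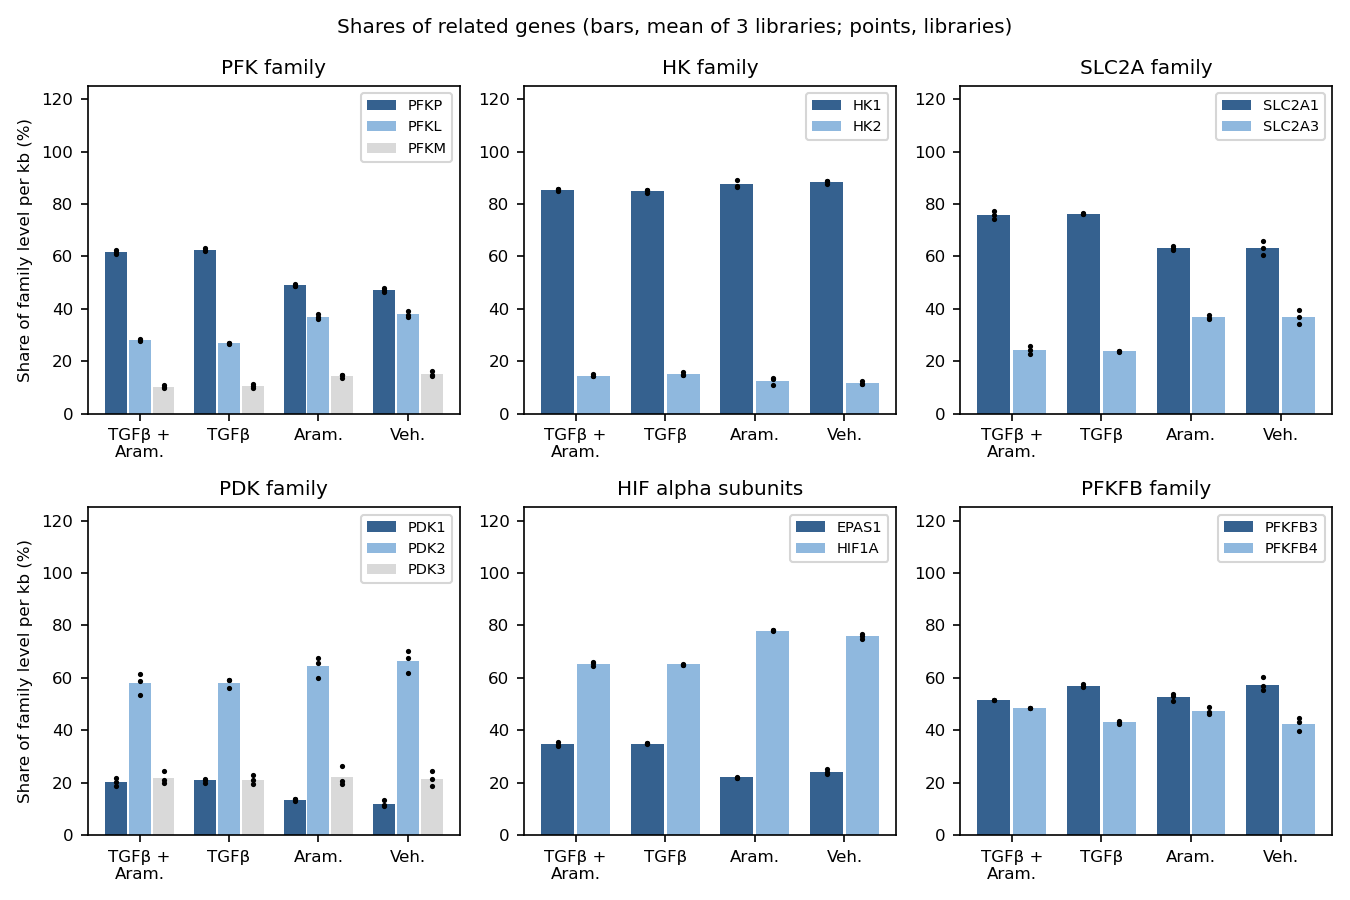
Share of each gene in the summed level per kb of its family (%), by group (Aram., Aramchol; Veh., vehicle). Bars are means of 3 libraries and points the libraries. PFKP, SLC2A1, PDK1 and EPAS1 have taller bars in both groups with TGFβ than in both groups without it, while the bars of PFKFB3 and PFKFB4 differ little between TGFβ and vehicle.

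Genes of the same pathways outside the set were counted from lists of known function, drawn up with earlier results of these data known, so the counts are not an independent check. Of all genes tested with TGFβ against vehicle, 18.9% were called higher and 18.1% lower. Among 42 other HIF targets, 27 rose (64.3%) and 3 fell (7.14%) with TGFβ, with a median log2 fold change of 0.43. Among those with the smallest p-values were BHLHE40, a transcriptional repressor (384 ± 6.91 CPM with TGFβ and 59.4 ± 2.74 CPM with vehicle) and the heme oxygenase HMOX1 (52.9 ± 4.10 CPM with TGFβ and 15.9 ± 1.38 CPM with vehicle). BHLHE40 is also a well-known TGFβ target. Of 15 tested among 21 other glycolytic enzymes and regulators, 6 rose (40%) and 2 fell (13.3%). They include BPGM, which makes bisphosphoglycerate (43.8 ± 4.17 CPM with TGFβ and 22.2 ± 1.79 CPM with vehicle), HKDC1, a further hexokinase at a low level (2.98 ± 0.775 and 0.243 ± 0.0879 CPM), and the muscle enolase ENO3 (16.5 ± 2.56 and 7.52 ± 0.634 CPM). All 3 rose, with adjusted p of 4.22e-08, 1.1e-07 and 2.67e-06 (edgeR).

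Pyruvate dehydrogenase genes outside the set were mostly lower with TGFβ. Of 11 other genes of the pyruvate dehydrogenase complex, its regulation and pyruvate carboxylation, 0 rose and 7 fell with TGFβ. The 7 were 63.6% of the list, against 18.1% of all genes called lower and 18.9% called higher. All 11 had a negative log2 fold change (median -0.37). PDK4, a pyruvate dehydrogenase kinase induced by fasting, had 4.99, 5.17 and 2.62 CPM with TGFβ + Aramchol and 1.95, 1.80 and 1.87 CPM with TGFβ, against 19.3, 17.6 and 13.5 CPM with Aramchol and 10.9, 10.9 and 12.5 CPM with vehicle. It fell by 2.60 on the log2 scale with TGFβ (adjusted p = 7.87e-08), opposite to PDK1. PC, pyruvate carboxylase, had 25.6 ± 2.40 CPM with TGFβ and 51.4 ± 6.99 CPM with vehicle, and PDP1, a phosphatase that activates the complex, 42.1 ± 2.79 and 61.4 ± 2.83 CPM. PC fell by 1.00 and PDP1 by 0.54 on the log2 scale (adjusted p = 2.48e-07 and 2.73e-06, edgeR). Of 21 enzymes of the citric acid cycle, 1 rose (4.76%, against 18.9% of all genes) and 4 fell (19%, against 18.1% of all genes). Falls were thus near the background and rises below it, with a median log2 fold change of 0.0018. Of the 21, OGDH (-0.40), IDH3A (-0.29) and IDH1 (-0.27 on the log2 scale) had the smallest p.

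Of 15 tested among 18 other transporters and pH regulators, 5 rose and 5 fell (33.3% each, against 18.9% of all genes higher and 18.1% lower). TXNIP, which restrains glucose uptake, had 178 ± 8.43 CPM with TGFβ and 397 ± 57.2 CPM with vehicle and fell by 1.16 on the log2 scale (adjusted p = 1.18e-08). The pyruvate transporter SLC16A7 fell by 0.98 and the glucose transporter SLC2A8 rose by 0.60 on that scale. Of 17 other HIF regulators 2 rose (11.8%) and 5 fell (29.4%). CITED2, which competes with HIF for its coactivators, had 56.4 ± 1.96 CPM with TGFβ and 218 ± 39.5 CPM with vehicle and fell by 1.95 (adjusted p = 1.13e-08), while SIAH2, a ligase that targets EGLN proteins, rose by 0.48 and the HIF partner ARNT2 by 0.72 on the log2 scale. Of 16 genes of the pentose phosphate pathway and other side branches 5 rose (31.2%) and 4 fell (25%). They included GFPT2, which starts hexosamine synthesis, up by 1.12, the fructose kinase gene KHK at -1.40 and the glycerol phosphate dehydrogenase gene GPD1L at -0.88 (log2, all called by edgeR).

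TGFβ + Aramchol against Aramchol measured the same response in cells that also had the drug, with other libraries on both sides but the same fit. Here 23 members rose (16% of all genes tested) and 0 fell (14.2% of all genes). PFKM and PDK2 were lower at an unadjusted p under 0.05, and DESeq2 also called 0 lower. The median log2 fold change was 0.35 over the members and -0.0056 over all genes. The direction was the same as in TGFβ against vehicle for 36 of 38 members (94.7%) and for 81% of all genes. Rises were called in both comparisons for 20 members, in TGFβ against vehicle alone for GPI and GAPDH, and in TGFβ + Aramchol against Aramchol alone for ALDOA, CA9 and MXI1. VEGFA rose 3.78-fold, ADM 3.53-fold, PFKFB4 3.04-fold, PFKFB3 2.90-fold and EGLN3 2.65-fold, the same 5 members as without the drug. LDHA rose 1.70-fold, SLC2A1 1.74-fold, EPAS1 1.81-fold and NDRG1 1.90-fold. The falls of PFKL, PFKM and PDK2 were not called here, with intervals of -0.18 to 0.081, -0.24 to -0.012 and -0.32 to -0.0094 on the log2 scale. Among the lists outside the set, 26 of 42 other HIF targets rose and 3 fell here, and 0 of 11 other pyruvate dehydrogenase genes rose and 7 fell. CA9 rose by 0.61 (adjusted p = 0.0164) although its groups overlapped, and the call was lost without TGFβ + Aramchol replicate 3 (log2 fold change 0.36, adjusted p = 0.116), Aramchol replicate 1 (0.0651) or Aramchol replicate 2 (0.0835).

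**Figure D4:**
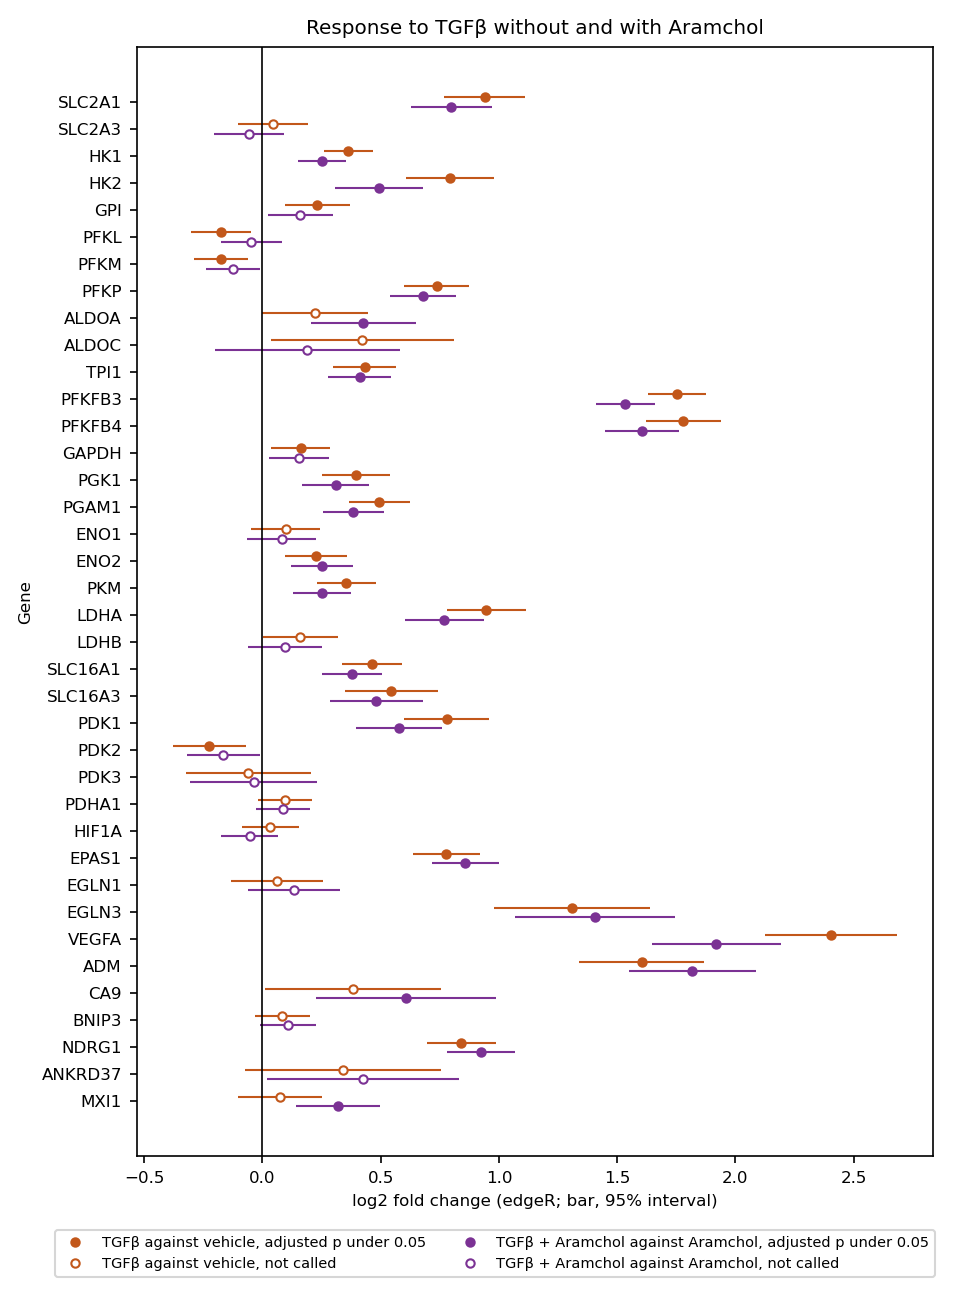
Log2 fold change of each gene with TGFβ against vehicle (orange) and with TGFβ + Aramchol against Aramchol (purple), with 95% intervals; filled points passed an adjusted p of 0.05. Most intervals of the same gene overlap, and VEGFA has the widest gap between the 2 responses, 2.40 and 1.92.

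Whether the response itself differed with the drug was tested as an interaction, which called 0 of the 38 members. In all genes it called 3 (0.0139%). At an unadjusted p under 0.05 there were 3 members, and 1137 of all 21567 genes tested, so 3 of 38 is near the background. The 3 were VEGFA (-0.48 on the log2 scale, 95% interval -0.86 to -0.11), HK2 (-0.30, interval -0.56 to -0.037) and PFKFB3 (-0.22, interval -0.39 to -0.047). Each was a smaller rise with the drug than without. Their adjusted p by edgeR was 0.898, 0.928 and 0.898, and DESeq2 called 0 as well. The value for VEGFA was -0.29 without vehicle replicate 3, and without the 4 libraries numbered 3 it was -0.34 and was called (adjusted p = 0.00828).

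TGFβ + Aramchol against TGFβ asked what the drug did in stimulated cells. Only PFKFB3 was called, and it was lower: 100.1, 101 and 109 CPM with TGFβ + Aramchol, against 124, 126 and 133 CPM with TGFβ. It fell by 0.30 ± 0.056 on the log2 scale (adjusted p = 0.014), or 1.23-fold lower, and was 2.90-fold above cells with Aramchol alone. The call was lost without TGFβ + Aramchol replicate 1 (adjusted p = 0.0801) or 2 (0.064) and without TGFβ replicate 2 (0.0553) or 3 (0.0746). Of all genes tested, 0.89% were called higher and 1.36% lower, so 1 of 38 is near the background. No member was called higher by edgeR or by DESeq2, and EGLN1 was higher at an unadjusted p under 0.05. PFKFB4, at 94.5, 94.9 and 103 CPM with TGFβ + Aramchol and 91.2, 96.8 and 101 CPM with TGFβ, overlapped between the groups (95% interval -0.14 to 0.17). The share of PFKFB3 in the pair was 51.5 ± 0.117% with TGFβ + Aramchol and 57 ± 0.634% with TGFβ, without overlap (exact permutation test, two-sided p = 0.1, 0.343 adjusted over 24 shares).

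VEGFA had 417, 416 and 407 CPM with TGFβ + Aramchol, against 587, 584 and 541 CPM with TGFβ. The libraries did not overlap, and the log2 difference was -0.47 ± 0.12, but the adjusted p was 0.0654, over the threshold. It passed in 8 of 21 alternatives. The adjusted p was 0.000372 in the fit with only these groups, 0.00688 with DESeq2, 0.0496 without vehicle replicate 1 and 4.39e-05 without vehicle replicate 3, and its range over the alternatives was 2.03e-12 to 0.184. Of the 38 members, 29 had a negative log2 fold change, as had 10817 of the 21567 genes tested. The median was -0.075 over the members and -0.00069 over all genes. An unadjusted p under 0.05 (edgeR) was found for 8 members and for 3705 of the 21567 genes, so 8 of 38 is near the background. Libraries did not overlap for 6 members that were lower with the drug, PFKM, PFKFB3, PDK2, EPAS1, VEGFA and NDRG1 (12.2% of all genes), and for 1 that was higher, EGLN1 (11.5% of all genes). The libraries numbered 3 bear on this comparison: with a term for them 7 members were called lower (ALDOC, CA9, EGLN3, PDK1, PDK2, PFKFB3 and VEGFA), and with the 8 other libraries alone 6 were. Of all genes, 4.43% were called lower with that term and 5.01% with the 8 libraries. In cells with TGFβ + Aramchol, replicate 3 was the highest of its group for 26 of 38 members (34.7% of all genes).

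Members of the route to lactate, and HIF1A, were not called between TGFβ + Aramchol and TGFβ. LDHA differed by -0.068 (95% interval -0.23 to 0.10) on the log2 scale, SLC2A1 by -0.031 (-0.20 to 0.14), HK2 by -0.079 (-0.26 to 0.10), PKM by 0.00077 (-0.12 to 0.12) and HIF1A by -0.063 (-0.18 to 0.058). ALDOC differed more, by -0.49, and was called lower in 5 of 21 alternatives. The log2 fold change was negative for 7 of 9 members of the upper pathway and 5 of 6 of the lower part. It was negative for 10817 of the 21567 genes tested. Outside the set, PDK4 was higher in TGFβ + Aramchol than in TGFβ libraries, by 1.18 on the log2 scale (adjusted p = 0.0137, values above), with replicate 3 of TGFβ + Aramchol well below the other two. The citric acid cycle enzyme IDH3A had 40.1, 38.6 and 37.7 CPM with TGFβ + Aramchol, against 30.7, 33.3 and 32.6 CPM with TGFβ (log2 0.27, adjusted p = 0.0182). HMOX1 was lower by 0.46 (log2), at 41.6, 40.0 and 33.5 CPM with TGFβ + Aramchol, against 56.4, 53.9 and 48.3 CPM with TGFβ (adjusted p = 0.0147). PNRC1, a nuclear receptor coactivator, was higher by 0.26 (adjusted p = 0.0356).

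Aramchol against vehicle, the effect of the drug in resting cells, called 0 of the 38 members by edgeR. In all genes 0.236% were called higher and 0.121% lower (51 and 26 genes, or 37 and 38 with upper quartile scaling). At an unadjusted p under 0.05 (edgeR) there were 11 members, against 2533 of the 21567 genes tested. DESeq2 called 3, all lower: CA9, MXI1 and PDK2. It called 1.13% of all genes lower. CA9 had 7.10, 6.63 and 9.59 CPM with Aramchol, against 11.5, 11.9 and 11.4 CPM with vehicle (log2 -0.58, 95% interval -0.95 to -0.20, edgeR adjusted p = 0.212). MXI1 had 25.6, 25.4 and 28.8 CPM with Aramchol, against 32.6, 30.4 and 36.6 CPM with vehicle (-0.32, interval -0.50 to -0.14). PDK2 had 33.2, 30.7 and 30.6 CPM with Aramchol, against 41.3, 38.7 and 33.8 CPM with vehicle (-0.27, interval -0.42 to -0.11). In these 3 genes no Aramchol library reached the lowest vehicle library. Libraries did not overlap for 7 members that were lower with Aramchol (1781 of 21567 genes) and for 2 that were higher (1669 of 21567 genes). From the 8 libraries numbered 1 and 2 alone, 9 members were called lower (3.86% of all genes) and 2 higher (3.23% of all genes). With a term for number 3, 5 members were called lower (1.13% of all genes). Without vehicle replicate 3 alone, EPAS1, NDRG1 and PDK2 were called lower (edgeR, adjusted p = 0.00668, 0.0336 and 0.0094), as were 1.75% of all genes. Among the other pathway genes TXNIP was lower, at 307, 303 and 299 CPM with Aramchol, against 360.0, 369 and 463 CPM with vehicle (adjusted p = 0.0485), and BHLHE40 was higher, at 69.9, 74.5 and 73.3 CPM with Aramchol, against 60.8, 61.1 and 56.2 CPM with vehicle (adjusted p = 0.0246).

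**Figure D5:**
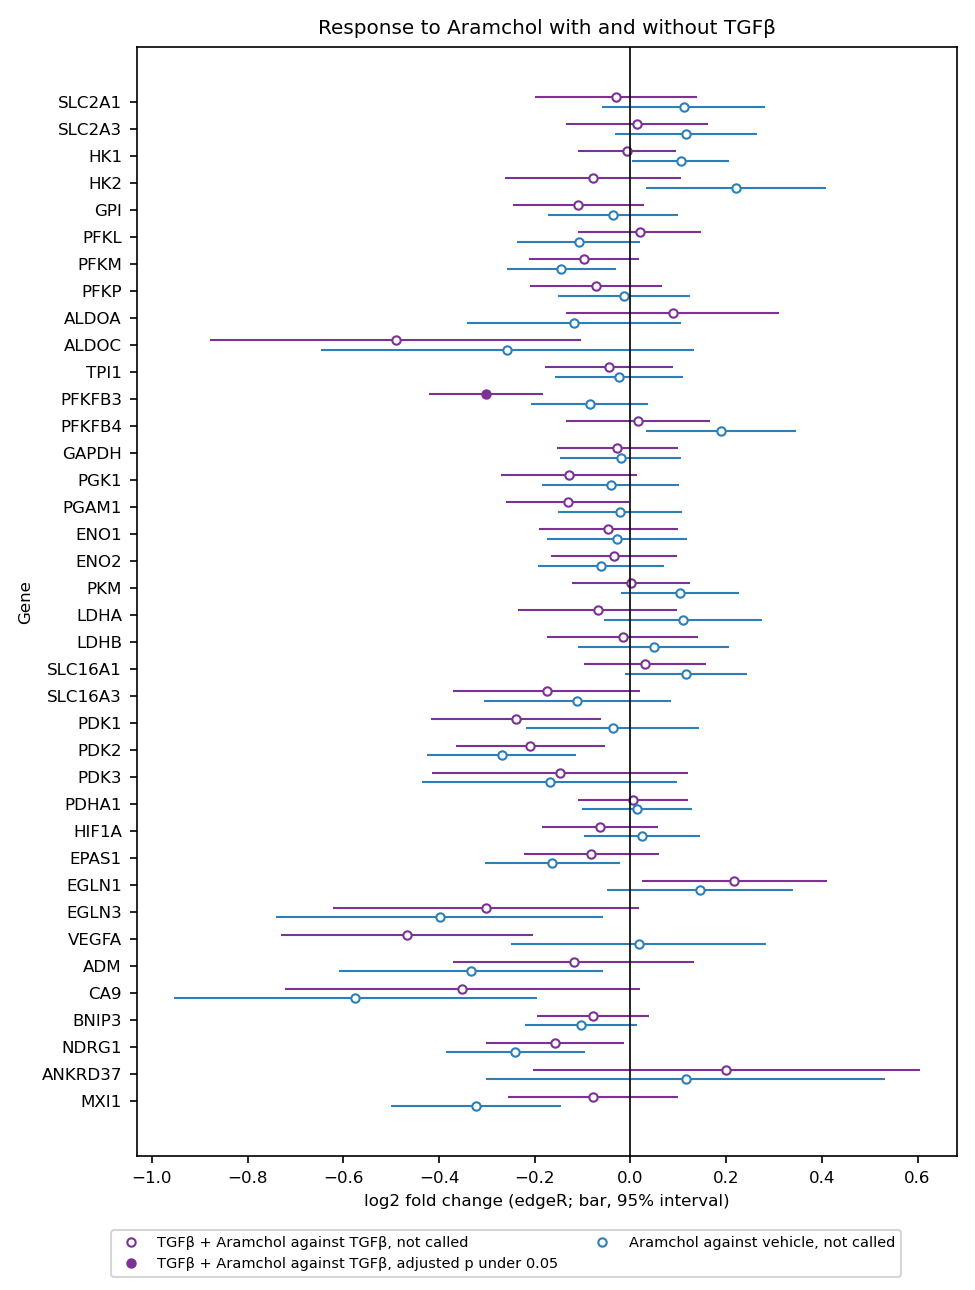
Log2 fold change of each gene with TGFβ + Aramchol against TGFβ (purple) and with Aramchol against vehicle (blue), with 95% intervals; the filled point, PFKFB3, passed an adjusted p of 0.05. Most intervals include 0, and CA9, ALDOC, VEGFA and EGLN3 lie lowest.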

How the data were processed

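RNA was extracted with Trizol, per the labels' protocols. The authors deposited whole-number counts per Ensembl gene with exon coordinates and exonic lengths; STAR 2.7.9a, featureCounts (Subread), DESeq2 and the builds GRCh38 and hg38 are named in the submitters' processing notes, and the sources used here do not say whether strand was used. Rows were matched to gene symbols by Ensembl identifier.

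From the counts, all 12 libraries were fitted with edgeR 4.0.16 (quasi-likelihood test, 1 mean per group, TMM scaling, filterByExpr, Benjamini-Hochberg over 21567 genes, threshold 0.05; R 4.3.3, limma 3.58.1). CPM and RPKM are TMM-scaled and computed here, an SE is the log2 fold change over the root of F, and intervals cover 95%. Scaling factors ran from 0.930 to 1.09 and were lower in every library with TGFβ than in every library without it. The biological coefficient of variation was 8.9%, and mitochondrial genes took 7.81 to 9.45% of counts. The procedure was tested on simulated data. Alternatives were other scaling, other filters, DESeq2 1.42.0, fits of fewer libraries, a term for replicate number 3 and a replicate block. Per-library values are given for members called at 1.5-fold or more with TGFβ, members called in another comparison, both HIF alpha subunits and the gene families compared; other lists name up to 3 genes of smallest p plus those called with Aramchol, and a few listed genes are not reported here. The members and lists were chosen with earlier results of these data known.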

Additional observations from a re-analysis of the deposited data

How the results depend on the processing

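For the TGFβ response, leaving out 1 library at a time, 20 to 23 members were called higher and 1 to 3 lower in TGFβ against vehicle, and 22 to 25 higher and 0 to 1 lower in TGFβ + Aramchol against Aramchol. The count of 1 lower came without TGFβ replicate 1, TGFβ replicate 3, vehicle replicate 1 or vehicle replicate 2, and also with no filter on low counts. In TGFβ + Aramchol against Aramchol, upper quartile scaling and the libraries numbered 1 and 2 alone each gave 1 lower, and the term for number 3 gave 2. Over the fold changes of single members in all 5 tests and all alternatives, 3776 kept their call and sign or stayed uncalled within 1 SE. A further 50 stayed uncalled and moved by 1 SE or more, 94 gained a call, 32 lost one and 0 reversed a call. No limit on size was set for members that kept a call.

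Counts of members called with Aramchol moved with the setting, and so did the share of all genes called. In TGFβ + Aramchol against TGFβ, 1 was called lower, and 5 were with no filter (2.06% of all genes), 2 with DESeq2 (3.84%), 7 with the term for number 3 (4.43%), 6 with the libraries numbered 1 and 2 (5.01%) and 2 with only these groups (3.1%), against 1.36% of all genes in the fit reported. Leaving out 1 library gave 0 to 3 lower and 0 higher. In Aramchol against vehicle, 0 were called, while no filter gave 5 lower (0.627% of all genes), DESeq2 3 (1.13%), the term for number 3 gave 5 (1.13%), and the libraries numbered 1 and 2 gave 9 lower (3.86%) and 2 higher (3.23%), against 0.121% lower and 0.236% higher in the fit reported. Leaving out 1 library gave 0 to 3 lower and 0 higher. For the interaction, no filter and the libraries numbered 1 and 2 each gave 1 lower (VEGFA), and leaving out 1 library gave 0. The cause was not tested.

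Replicate numbers were not taken to pair the samples, since the correlation passed 0.1 in every pair for number 3 alone: deviations of same-numbered libraries correlated at 0.00739 to 0.107 for number 1, 0.0158 to 0.0812 for number 2 and 0.111 to 0.221 for number 3. With the replicate block, 24 were higher and 3 lower in TGFβ against vehicle, 25 higher and 2 lower in TGFβ + Aramchol against Aramchol, 6 lower in TGFβ + Aramchol against TGFβ (4.06% of all genes) and 5 lower in Aramchol against vehicle (0.941%).

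The depth of 52279922 to 70339925 counts per library bounds counting error, and 3 libraries per group bound the precision of each spread. An exact permutation test of 3 against 3 cannot go below p = 0.1.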
